A study of Mus musculus with 2 samples.

Results

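The 5 genes Pgr, Esr1, Esr2, Pparg and Nrip1, which carry steroid and lipid signals in ovulation, were followed in a map of FOS on chromatin. They were chosen by name, with earlier results of these data known, and each was described by every FOS peak whose nearest gene or host gene it is, or by the nearest peak on its chromosome where it has none. Of the 2374 peaks of the FOS library, 7 belonged to these genes, and 4 of the 5 genes had at least 1, beside 7.58% of the 21887 protein-coding genes of the RefSeq table. The cells were granulosa cells, the somatic cells that line the follicle and surround the oocyte, taken by puncturing follicles of wild-type mice. The females were 25 days old, were primed with PMSG, a gonadotropin that grows follicles, and gave their ovaries 3 h after hCG, a ligand of the LH receptor that triggers ovulation. Chromatin was pulled down with a FOS antibody in 1 library, which is the only one with peaks here, and the label of the other library names no antibody. There were no replicates, no mice without hCG and no counts of reads. Sequencing depth is therefore unknown, no value carries an error between animals, and no p-value is given. A peak list holds no RNA level, so the labelled cell type was not checked against its markers.

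Nuclear receptors are transcription factors that a small lipophilic ligand switches on, and they act through coactivators and corepressors that they recruit to DNA. PGR, the progesterone receptor, is induced in granulosa cells by the ovulatory surge, and mice without it do not release oocytes. ESR2 is the main oestrogen receptor of granulosa cells, whereas ESR1 is better known from the theca and the uterus. PPARG binds fatty acid derivatives and pairs with RXR receptors, and in mouse granulosa cells its expression is reported to need PGR. NRIP1, also called RIP140, is a corepressor of nuclear receptors, and female mice without it fail to release oocytes. FOS pairs with JUN proteins to form AP-1, which recognises TGANTCA in DNA.

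FOS peaks lay at Pgr, Esr2, Pparg and Nrip1, and none was assigned to Esr1. The authors' peak score is a whole number that ranks peaks within the list. The highest score among the 7 peaks was 139, at Esr2, followed by 102 and 80 at Nrip1, 74 and 67 at Pgr, and 55 and 51 at Pparg. The median was 74 over the 7 peaks, against 67 over all 2374 peaks, whose scores ran from 13 to 2234. At or above the median of the list lay 5 of the 7, beside 51.0% of all peaks, of which several tie at the median, but with score divided by peak width only 3 of the 7 reached the median. At a score of 99 or more, which 618 peaks reach, lay 2 of the 7, the Esr2 peak and the nearer Nrip1 peak, beside 26.0% of all peaks. The 7 scores thus lay on both sides of the middle of the list, and none was among its extremes.

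**Figure D1:**
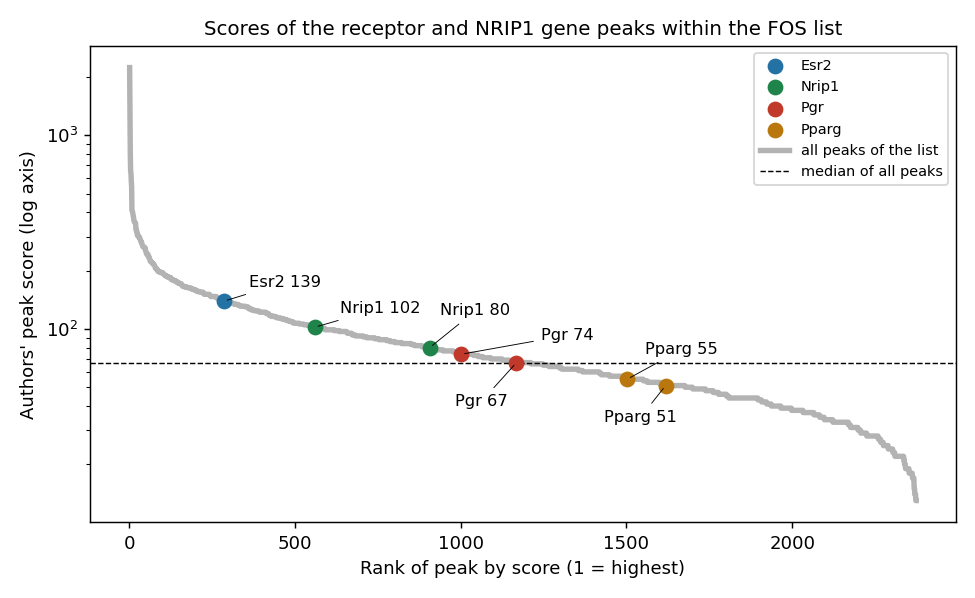
Peak score (log axis) against rank for all 2374 FOS peaks, drawn as a grey line, with the 7 peaks of Esr2, Nrip1, Pgr and Pparg as coloured points and the median of all peaks as a dashed line. The Esr2 peak stands highest at 139 and both Pparg peaks, 55 and 51, lie below the median of 67.

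All 7 peaks lay away from the promoters of their genes. In the authors' classes, 3 were intronic, 4 were intergenic and 0 were in the promoter class, which held 15.2% of all peaks, while introns held 44.7% and intergenic sequence 35.4%. The deposited distance from the peak centre to the transcription start site (TSS) ran from 15.9 kb to 167 kb over the 7 peaks, with a median of 31.9 kb, against 18.2 kb over all peaks. None of the 5 genes had a peak within 10 kb of its TSS, by the deposited distance or by the nearest RefSeq start. By the deposited distance 3.48% of protein-coding genes did. With so few genes and peaks, a count of 0 shows no contrast with 3.48% of genes or with 15.2% of peaks. Peak widths ran between 270 and 527 bp, and their median of 374 bp compares with 342 bp over the whole list. For the 3 intronic peaks the host gene was also the nearest gene, and the 4 intergenic peaks were assigned by the nearest start alone.

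**Figure D2:**
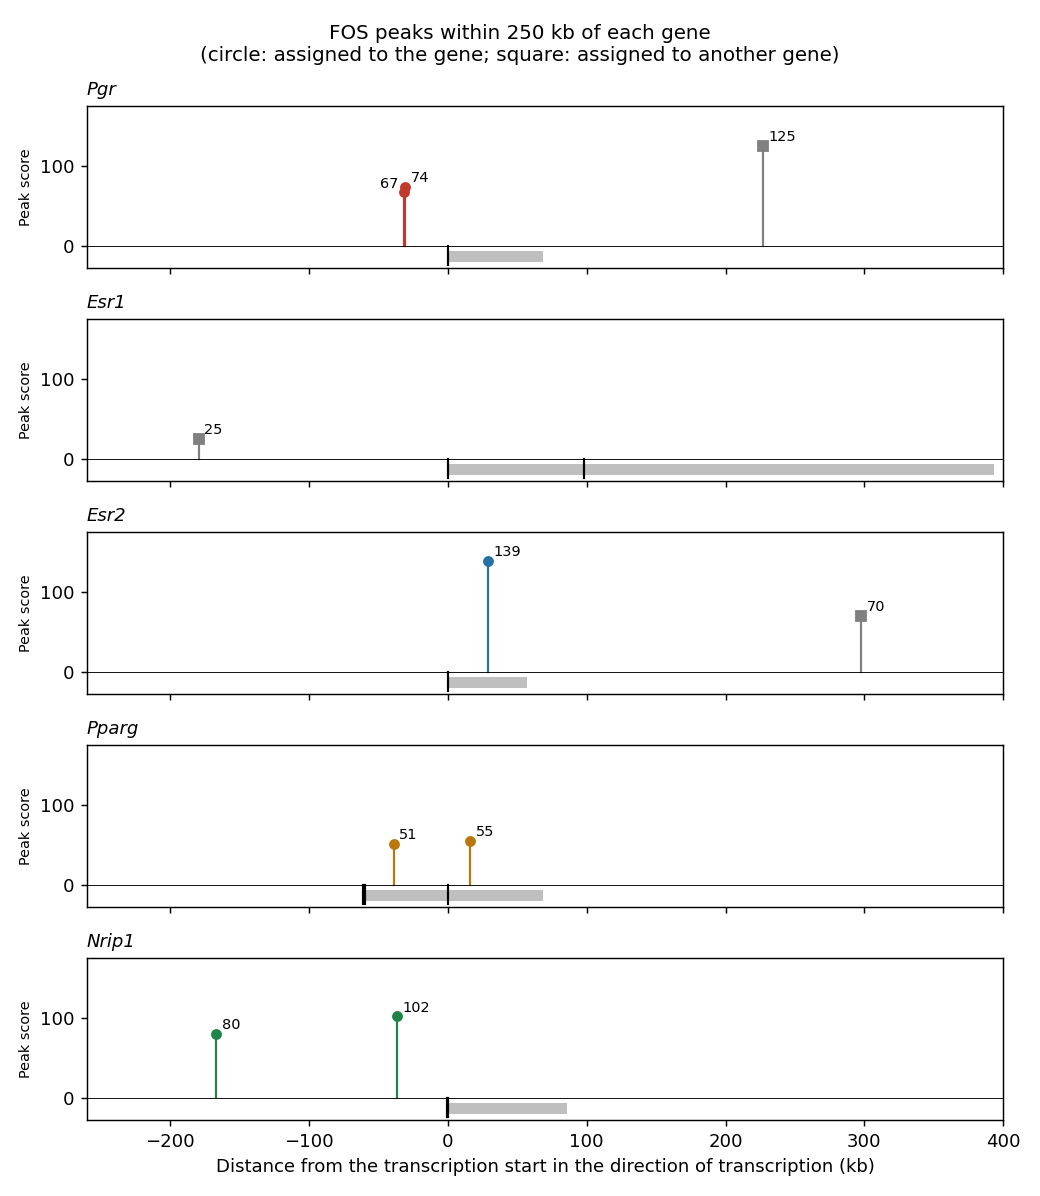
FOS peaks within 250 kb of each gene, placed by distance in kb from the deposited start (for Esr1, the upstream RefSeq start) in the direction of transcription, with peak score on the vertical axis. Grey bars are gene spans, black ticks are RefSeq starts, circles are peaks assigned to the gene and squares are peaks assigned to another gene; no peak sits at a start of any of the 5 genes.

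Pgr lies on the plus strand of chromosome 9, 8898900 to 8968611 (mm10), a span of 69.7 kb. Its 2 peaks were intergenic and stood side by side upstream. The peak at 8868812 to 8869081 scored 74 (rank 1001 of 2374) and lay 30.9 kb upstream of the TSS. The peak at 8867732 to 8868078 scored 67 (rank 1168) and lay 31.9 kb upstream. Their centres were 1041 bp apart, and whether the pair marks a single site was not tested. Another peak within 5 kb was found for 2 of the 7 peaks, both at Pgr, beside 6.99% of all peaks. The nearer Pgr peak was also the narrowest of the 7 at 270 bp, narrower than all but 8.8% of the list.

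A higher-scoring peak lay on the other side of Pgr. At 9126885 to 9127226, in intron 3 of 22 of Arhgap42, a peak scored 125 (rank 371). The authors' nearest gene for it was Gm16833, and it lay 158 kb past the end of the Pgr span. Neither assignment rule gives it to Pgr, so it is not among the 7. It brings the peaks within 250 kb of Pgr to 3, more than at any of the other 4 genes.

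The promoter of Pgr is shown because no peak touched it, although the ovulatory surge is known to induce the gene. The sequence gives the 250 bases before the TSS, 5′ to 3′, from RefSeq on GRCm38.p6, the assembly that mm10 names, at chr9:8899583-8899832 on the plus strand, and capitals mark GGGCGG, the GC box bound by SP1 family factors.

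Pgr promoter: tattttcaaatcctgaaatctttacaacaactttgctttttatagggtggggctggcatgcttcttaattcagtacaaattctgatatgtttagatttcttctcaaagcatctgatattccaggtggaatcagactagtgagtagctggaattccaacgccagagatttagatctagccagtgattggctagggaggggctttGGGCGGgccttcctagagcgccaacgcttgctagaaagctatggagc

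The GC box stood at positions -47 to -42, counted from -1 at the base before the TSS. TGANTCA was not found in the window, which was searched on both strands from 250 bases before the start to 50 after it. The start used, 8899833, lies inside the gene span, which begins at 8898900, and the sequence before the span was not searched.

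Esr2, on the minus strand of chromosome 12 at 76120419 to 76177259, had 1 peak and the highest score of the group. The peak lay inside the gene at 76148163 to 76148590, in intron 4 of 7 by the authors' annotation, and its centre was 28.9 kb downstream of the TSS. Its score of 139 put it at rank 285, with 12.0% of all peaks scoring higher. At 428 bp it was wider than 79.4% of the list. The nearest other peak centre was 269 kb away, against a median of 146 kb over the list. That neighbour, in an intron of Syne2, a nuclear envelope protein gene, scored 70 and was assigned to Mir5101.

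Esr1 had no peak. The gene is on the plus strand of chromosome 10 at 4611989 to 5005633, a span of 394 kb that is the longest of the 5. The nearest peak, at 4432330 to 4432715, ended 179 kb before the gene and was a promoter peak of Armt1. It scored 25 (rank 2275), and 95.8% of all peaks scored higher. On the far side the next peak lay 2.21 Mb past the end of Esr1, a promoter peak of Cnksr3 with a score of 59. The stretch without a peak was 2.78 Mb long, longer than 89.8% of the stretches between neighbouring peaks, whose median was 0.38 Mb. A stretch that holds all 394 kb of Esr1 has to be longer than this median, so its high rank is partly built in. Of the 2 oestrogen receptor genes, Esr2 thus held a peak, of score 139, and Esr1 held none. Esr1 was not unusual among genes at large: of the 21631 protein-coding genes on chromosomes with a peak, 39.7% lay nearer to a peak and the median distance was 279 kb. Absence from the list means that no peak passed the authors' threshold in this library, and binding below it was not measured.

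**Figure D3:**
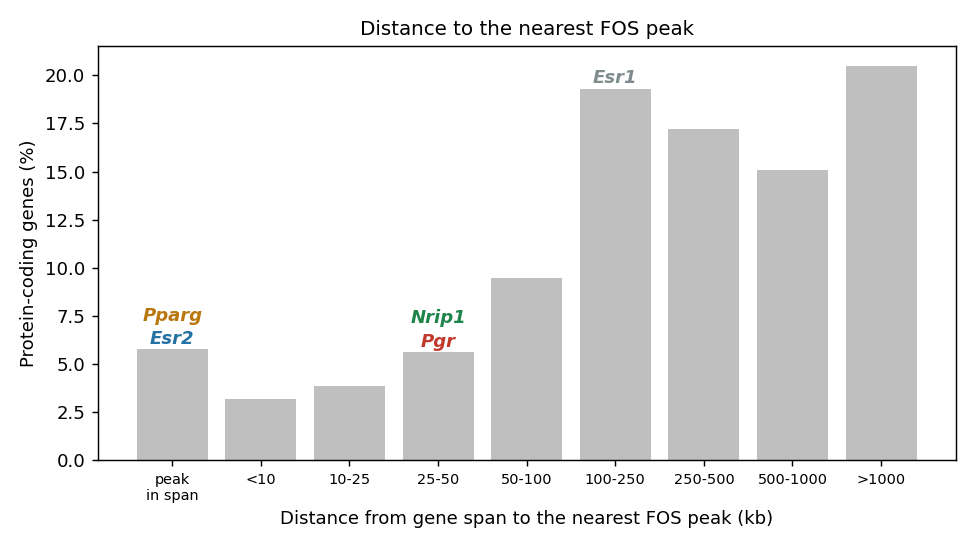
Share of protein-coding genes (percent, 21631 genes on chromosomes with a peak) by distance from the gene span to the nearest FOS peak in kb, with the bins of the 5 genes named. Esr2 and Pparg hold a peak, Pgr and Nrip1 fall in the bin from 25 to 50 kb, and Esr1 falls in the bin from 100 to 250 kb.

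The promoter of Esr2, also without a peak, is shown beside the intronic site. The bases are those before the TSS at chr12:76177260-76177509 on the minus strand, and they carry no capitals because neither TGANTCA nor GGGCGG was found.

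Esr2 promoter: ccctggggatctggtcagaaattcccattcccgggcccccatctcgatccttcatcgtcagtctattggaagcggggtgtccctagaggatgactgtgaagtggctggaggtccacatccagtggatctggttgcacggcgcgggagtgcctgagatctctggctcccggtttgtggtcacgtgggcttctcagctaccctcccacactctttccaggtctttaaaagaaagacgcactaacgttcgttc

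Pparg lies on the plus strand of chromosome 6, 115360879 to 115490404, and held both of its peaks within its introns. The peak at 115437831 to 115438140 scored 55 (rank 1502). The peak at 115382766 to 115383174 scored 51 (rank 1618). These were the lowest scores of the 7, with 63.2% and 68.1% of all peaks scoring higher. Their centres were 55.0 kb apart.

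The place of the Pparg peaks depends on the start they are measured from. The promoter table lists 3 starts for the gene, at 115361144, 115362349 and 115422066. The deposited distances use the last of these. By it the peak of score 51 is 39.1 kb upstream, yet it is 21.8 kb and 20.6 kb downstream of the other starts, and the authors annotate it as intron 1 of 7. The peak of score 55 is 15.9 kb downstream of the last start, in intron 1 of 6, and 76.8 kb and 75.6 kb downstream of the others. The authors' detailed annotation calls that same place intron 2 of 7. Both peaks therefore lie downstream of the upstream starts, and they stand on either side of the internal start. Over the list, all 233 genes with 2 or more peaks and a known strand were measured from a single start (within 2 bp), 67 of them genes with 2 or more starts in the table.

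Around Pparg the list was sparse. The next peaks outside the gene lay 1.71 Mb before it and 918 kb after it, and no peak assigned to another gene fell within 250 kb. The 2.75 Mb between those flanking peaks held only the 2 peaks of Pparg.

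Nrip1, on the minus strand of chromosome 16 at 76287403 to 76373827, had 2 intergenic peaks, both upstream. The peak at 76409231 to 76409757 scored 102 (rank 559) and lay 36.4 kb from the deposited TSS. It was 527 bp wide, the widest of the 7 and wider than 94.1% of the list. The peak at 76539578 to 76539951 scored 80 (rank 906) and lay 167 kb upstream, farther from its TSS than 94.0% of all peaks. The centres were 130 kb apart. Nrip1 sits in gene-poor sequence: the nearest protein-coding gene on the upstream side, Usp25, starts 640 kb away, and Samsn1 on the other side is 378 kb away. Both peaks lie in the interval between Nrip1 and Usp25. A distant peak in such a place is assigned to Nrip1 because no other listed start is nearer, and contact between the sites and the gene was not measured. Past the 3′ end of Nrip1 the next peak was 1.66 Mb away.

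The Nrip1 promoter at the deposited TSS is shown for its GC boxes, at chr16:76373050-76373299 on the minus strand, with GGGCGG in capitals. Its 2 matches overlap, and the first stands at positions -38 to -33.

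Nrip1 promoter: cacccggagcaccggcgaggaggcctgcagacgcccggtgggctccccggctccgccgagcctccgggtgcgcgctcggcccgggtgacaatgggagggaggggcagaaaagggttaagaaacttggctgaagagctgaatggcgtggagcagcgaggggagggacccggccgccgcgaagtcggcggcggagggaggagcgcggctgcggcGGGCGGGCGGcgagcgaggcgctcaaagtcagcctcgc

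None of the 9 promoter windows of the 5 genes held TGANTCA, where 7.81% of all 32851 windows of the table did. These windows reach from 250 bases before a start to 50 after it, and some genes have several. TGACGTCA, the cAMP response element, was in 0 of the 9 and in 1.79% of all windows. GGGCGG or its complement was in 4 of the 9 and in 35.7% of all windows. With only 9 windows, none of these counts shows a contrast with the share over all windows. Of the 365 windows that a FOS peak overlapped, 108 (29.6%) held TGANTCA, against 7.56% of the 32486 windows with no peak. The other motifs were also more frequent under peaks, TGACGTCA with 8.22% against 1.72% and GGGCGG with 60.8% against 35.4%. A match is a run of letters and not a shown site, and the sequences of the 7 peaks themselves were not used here.

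Of the 4 genes with a peak, 3 (Pgr, Pparg and Nrip1) had 2 peaks each, where 15.8% of the protein-coding genes with a peak had 2 or more. Counting any peak within 50 kb of the gene span, whichever gene it was assigned to, gave the same 4 genes, beside 18.2% of protein-coding genes. When only scores of 67 or more were counted, 3 of the 5 genes had a peak (Pgr, Esr2 and Nrip1), beside 4.12% of protein-coding genes. At 99 or more only Esr2 and Nrip1 did, beside 2.20%.

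The corticosteroid receptor genes had no peak. Of the 5 genes Pgr, Esr1, Esr2, Nr3c1 and Nr3c2, only Pgr and Esr2 did, where 7.58% of all protein-coding genes have a peak. The nearest peak to Nr3c1, the glucocorticoid receptor, was 1.03 Mb away, and that to Nr3c2, the mineralocorticoid receptor, 243 kb. Among the 6 PPAR and RXR genes 1 had a peak, Pparg, and with so few genes this count shows no contrast with that share. Rxrb, a partner of PPARG, had one 82.6 kb away, Ppard 170 kb, Rxrg 367 kb, Rxra 762 kb and Ppara 2.05 Mb.

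Among 62 nuclear receptor and coregulator genes, 16 (25.8%) were the nearest gene of a peak, or 12 of 57 without Pgr, Esr1, Esr2, Pparg and Nrip1, beside 7.58% of all protein-coding genes. Receptors made up 12 of 41 and coregulators 4 of 21. Counting any peak within 50 kb of the gene span gave 18 of 62, beside 18.2% of protein-coding genes. Without Pgr, Esr1, Esr2, Pparg and Nrip1 that rule gave 14 of 57 (24.6%), nearer to the share of all genes. By best score the leading gene was Kdm1a, a histone demethylase, with 652 in its intron 7 of 18 (rank 4 of all peaks). Tbl1xr1, a subunit of the NCoR corepressor complex, had an intergenic peak of 322 at 124 kb upstream. Nr1d1, the clock repressor REV-ERB alpha, had a promoter peak of 221. Nr1h4, the bile acid receptor FXR, had a peak of 147 in intron 1 of 9. Esr2 and Nrip1 came next, with 139 and 102. Of the 25 peaks of this list 2 were in the promoter class, and neither belonged to the 5 genes.

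**Figure D4:**
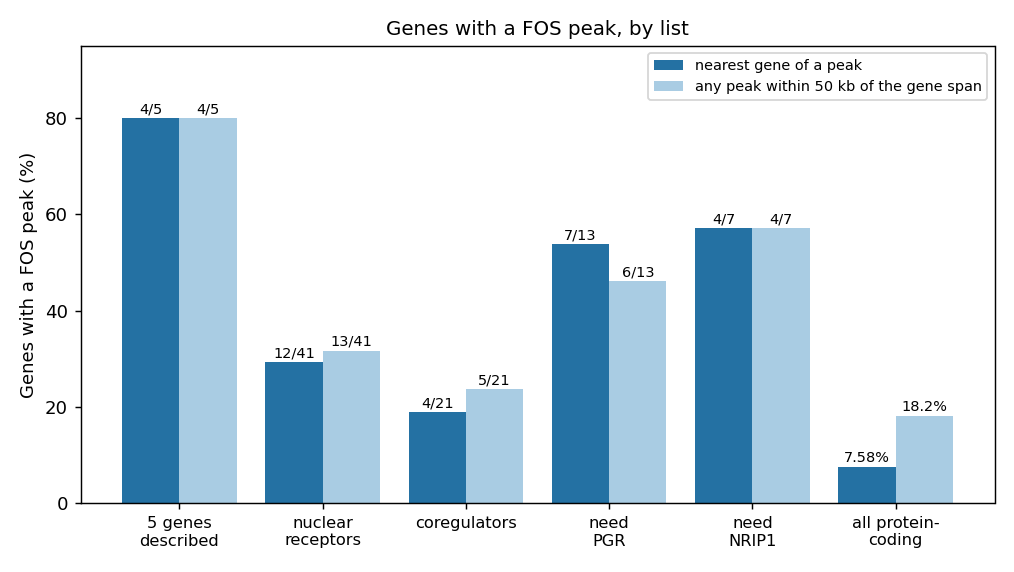
Percent of genes with a FOS peak by nearest gene (dark bars) and by any peak within 50 kb of the gene span (light bars), with counts above the bars, for the 5 genes, for 4 lists and for all protein-coding genes. The 5 genes have 4 of 5 by both rules, against 7.58% and 18.2% of all protein-coding genes; the lists share members with the 5 genes.

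Genes reported to act downstream of PGR or NRIP1 were looked up in the same way. Of 13 genes reported to need PGR in mouse granulosa cells, 7 had a peak, and of 7 reported to need NRIP1 in the mouse ovary, 4 did, beside 7.58% of all protein-coding genes. Epas1, a hypoxia-inducible factor, had the best score of the PGR group, 173 in intron 1 of 15. Adamts1, a secreted protease acting on versican, had an intergenic peak of 124. Hif1a, the other hypoxia factor, had a best peak of 99, which was intergenic and 128 kb upstream. Cited2, a transcriptional coregulator, had a peak of 91 at 173 kb upstream and Snap25, a vesicle fusion protein, one of 87. The group includes Pparg itself, and without it 10 of the 19 remaining genes of both groups had a peak. No peak was assigned to Il6, Adcyap1, Zbtb16, Cxcr4, Prkg2 or Ctsl, nor to the EGF-like ligand genes Areg, Ereg and Btc of the NRIP1 group. For Btc a peak assigned to another gene lay 36.5 kb away.

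Promoter peaks made up 2 of the 5 peaks of the NRIP1 group, beside 15.2% of all peaks. None occurred in the PGR group, at Nrip1 or at any of the other 4 genes. Tnfaip6, whose product crosslinks hyaluronan in the cumulus matrix, and Ptgs2, the inducible prostaglandin synthase, each had a peak over the TSS, with scores of 355 and 44. The Ptgs2 peak, at rank 1809, scored below the list median of 67. Their promoters, each under a peak, are shown beside those of Pgr, Esr2 and Nrip1. The sequences are the 250 bases before the TSS on the plus strand, at chr2:52037863-52038112 for Tnfaip6 and chr1:150099781-150100030 for Ptgs2. Capitals mark TGAGTCA, a form of TGANTCA, and GGGCGG or its complement CCGCCC.

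Tnfaip6 promoter: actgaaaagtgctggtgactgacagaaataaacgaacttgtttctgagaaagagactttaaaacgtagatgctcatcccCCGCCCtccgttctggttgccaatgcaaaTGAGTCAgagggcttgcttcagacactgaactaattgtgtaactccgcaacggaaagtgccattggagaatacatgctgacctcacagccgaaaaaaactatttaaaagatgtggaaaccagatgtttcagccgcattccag
Ptgs2 promoter: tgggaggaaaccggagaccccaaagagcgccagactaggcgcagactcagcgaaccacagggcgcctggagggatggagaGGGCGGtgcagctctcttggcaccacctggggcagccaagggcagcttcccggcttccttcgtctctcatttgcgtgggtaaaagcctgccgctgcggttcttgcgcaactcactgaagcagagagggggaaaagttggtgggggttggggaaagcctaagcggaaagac

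The Tnfaip6 promoter held TGAGTCA at positions -142 to -136, within its peak at 52037794 to 52038225. The Ptgs2 promoter held a GC box at positions -170 to -165 and no TGANTCA.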

How the data were processed

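The FOS ChIP-seq peak list of granulosa cells was analysed. Per the file headers, a narrowPeak file was passed to annotatePeaks of HOMER. The tools in the submitters' processing notes are MACS2 2.2.7.1, BWA, Trim Galore and deepTools 3.5.1, with the mm10 build. Which threshold and control library the peak caller used is not given in the sources used here. As deposited, the peak score is the authors' score of each peak, on a scale that is not stated. Deposited positions and distances are in bp.

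All 2374 nearest-gene names matched a RefSeq gene table of GRCm38.p6, by accession, symbol or older symbol. Gene spans, starts and promoter windows came from RefSeq tables of that assembly. All 5 genes, with 9 windows, were matched. Counts were set beside the same share over all protein-coding genes, peaks or windows, and no test was run. The genes and lists were chosen with earlier results of these data known. The 6 covered genes with the highest score in the receptor and coregulator list and in the list of genes needing PGR or NRIP1 are named with values, and other genes were named after their values were seen. Distance, neighbour and motif searches were tested on simulated data. Alternatives covered assignment, score, distance, neighbour distance and motif. Python 3.11.15, numpy 2.4.6 and pandas 2.3.3 were used.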

Additional observations from a re-analysis of the deposited data

How the results depend on the processing

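The number of genes with a peak stayed at 4 of 5 with host genes counted, with any peak within 50 kb of the gene span and within 100 kb of the TSS, and was 3 when only scores of 67 or more were counted. The share of all genes with a peak within 100 kb of the TSS was not computed. The number was 2 with scores of 99 or more and 0 within 10 kb of the TSS. Of all protein-coding genes, 2.20% and 3.48% met those limits. Under the same limits the 16 nuclear receptor and coregulator genes fell to 8 and 7 of 62. The 11 genes reported to need PGR or NRIP1 fell to 4 and 3 of 20. With any peak within 50 kb counted, these 2 lists gave 18 and 10 genes, beside 18.2% of protein-coding genes. Of the 7 peaks, 5 reached the median score, 2 reached 99, and 3 the median once score was divided by peak width. The close pair at Pgr was found at 2 kb, 5 kb and 20 kb. In the 9 promoter windows TGANTCA, its forms with a central C or G and TGACGTCA were each found in 0, and GGGCGG, added after seeing the data, in 4. Leaving the 5 genes out of the lists and using the nearest RefSeq start were added too. Over all promoter windows the shares with these motifs were 7.81%, 5.20%, 1.79% and 35.7%, in the order given. The motif search in the peaks themselves was not run, for want of a genome. No paired analysis was possible because the FOS library is the only library with values. With 1 library and no read counts, binding below the authors' threshold cannot be seen.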
